A study of Homo sapiens with 6 samples.

Results

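The 10 genes described here belong to the Hippo-YAP pathway or are textbook targets of it: *YAP1*, *WWTR1*, *TEAD1*, *LATS1*, *LATS2*, *AMOTL1*, *AMOTL2*, *CYR61*, *CTGF* and *ANKRD1*. They were taken by name from the deposited table of the series, which lists 15917 genes, and all 10 were in it. *CYR61* and *CTGF* are older symbols of *CCN1* and *CCN2* and are printed as the table writes them. The series is a total RNA-seq experiment in MDA-MB-231, an established human triple-negative breast cancer line with mesenchymal features. It has 6 libraries, of which 2 came from shCTRL cells with a control hairpin, 2 from shRBMS3-B3 cells and 2 from shRBMS3-C3 cells. The last 2 groups carry different hairpins against *RBMS3*, an RNA-binding protein, delivered by lentivirus, and the control cells are labelled wild type. The study asked which transcripts depend on *RBMS3*. The table holds no value of a single library. Besides gene names it gives the authors' mean normalized count of each gene and the results of their own comparison of knockdown and control cells, and the latter were not used here. No difference between control and knockdown cells is therefore reported, each level below is the authors' pooled mean, and no level has an error. Which libraries entered that mean is not given in the sources used here, and the depth of the libraries is unknown.

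Hippo signalling is a kinase cascade that restrains the coactivators YAP and TAZ. LATS kinases phosphorylate them and keep them out of the nucleus. When the cascade is quiet, as in spread cells on a stiff surface, YAP and TAZ enter the nucleus, bind TEAD transcription factors and switch on genes such as *CYR61*, *CTGF* and *ANKRD1*. Several targets, among them *LATS2* and *AMOTL2*, encode inhibitors of YAP and so close a feedback loop.

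The labelled cell line was checked against marker genes. Of 6 genes expected in MDA-MB-231 cells, 5 were in the table, all above the median level per kilobase of all genes, and *SPARC* was absent from it. *VIM*, the mesenchymal intermediate filament, had a mean normalized count of 69336. Of 9 epithelial or luminal genes expected to be low, 6 were in the table and 3 of these were above the median level per kilobase. *ESR1*, *PGR* and *FOXA1* were absent from the table, and *CDH1*, which encodes E-cadherin, had a mean of 31.6. *GATA3* and *EPCAM* were also below the median, with means of 171.4 and 107.2. The 3 that went against the expectation were the simple epithelial keratins *KRT8* and *KRT18*, with means of 17802 and 12689, and the receptor gene *ERBB2*, with a mean of 1557, or 341.8 per kilobase. *RBMS3* itself had a pooled mean of 271.5, and its level in control cells alone is not known here.

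By mean normalized count, all 10 Hippo-YAP genes were above the median of the 15917 listed genes, which was 363.8. Counts grow with transcript length, so levels of different genes were compared per kilobase of a representative GENCODE transcript. On this scale 9 of the 10 were above the median of 136.5 over 15829 genes with an annotated length, 8 were above the 75th percentile of 382.6, and 3 were above the 90th percentile of 1034.5. The exception at the low end was *LATS1*. From the highest to the lowest level per kilobase the order was *ANKRD1*, *CYR61*, *CTGF*, *AMOTL2*, *YAP1*, *AMOTL1*, *WWTR1*, *TEAD1*, *LATS2* and *LATS1*. The 3 leading genes are classical targets of YAP and TAZ, and the 2 at the end are the kinases that restrain them. It is not a clean split, since *AMOTL2* at 917.9 and *LATS2* at 188.3 per kilobase are also targets. Whether YAP was active in these cells was not tested. The middle of this order depended on the length used, and per kilobase of coding sequence *TEAD1* moved from place 8 to place 4, above *AMOTL2*, *YAP1*, *AMOTL1* and *WWTR1*. With no spread over libraries, neighbours in this order cannot be told apart by a test.

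**Figure D1:**
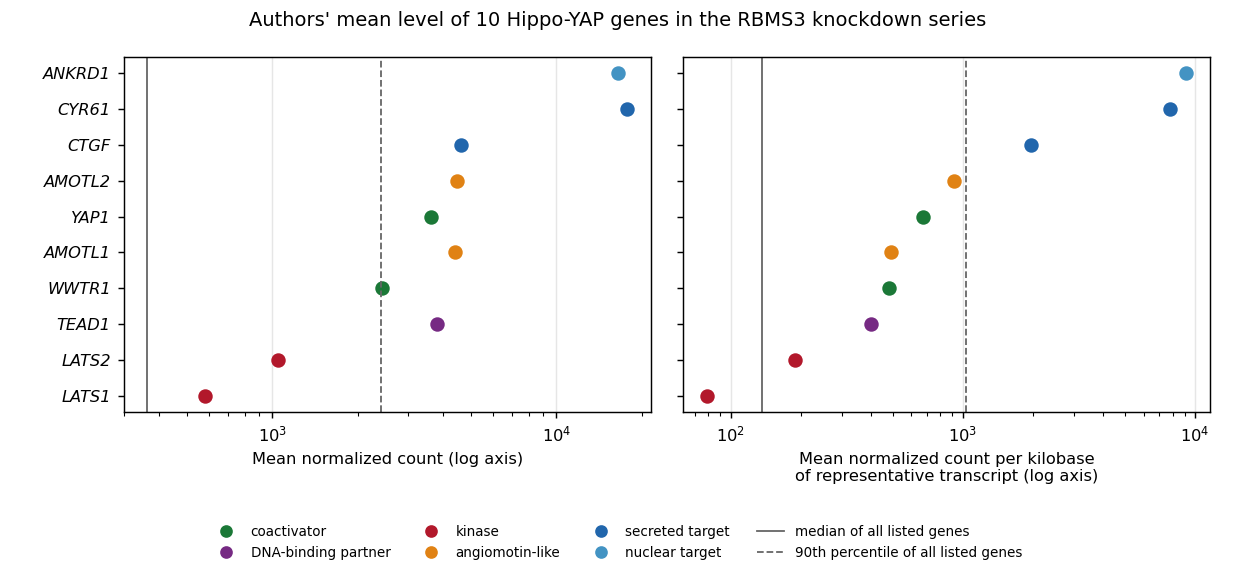
Authors' mean normalized count of each of the 10 genes (left) and the same value per kilobase of the representative transcript (right), both on log axes, with genes ordered by the right panel and coloured by role. Each point is a single pooled mean with no error, the lines mark the median and the 90th percentile of all listed genes, and *ANKRD1*, *CYR61* and *CTGF* are the only points right of the 90th percentile per kilobase.

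The coactivators were both well represented. *YAP1* (ENSG00000137693) occupies chr11:102110447-102233424, plus strand, by GENCODE release 44 (GRCh38), as do all gene positions here, and its representative transcript has 9 exons. Its mean normalized count was 3632, or 672.5 per kilobase, above 84.8% of genes. *WWTR1* (ENSG00000018408), which encodes TAZ, is at chr3:149517235-149736714 (minus strand) with 7 exons. Its mean was 2429, or 482.2 per kilobase, above 79.4% of genes. The level of *YAP1* per kilobase was 1.39 times that of *WWTR1*, and the ratio was 1.19 per kilobase of coding sequence.

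*TEAD1* (ENSG00000187079), the DNA-binding partner of YAP and TAZ among the 10 genes, is at chr11:12674421-12944737 (plus strand). Its mean normalized count was 3787, close to that of *YAP1*. Its representative transcript of 9417 bases was the longest of the 10 genes, and the level per kilobase was 402.1, above 76.0% of genes. All 4 TEAD genes were in the table, with 229.5 per kilobase for *TEAD2*, 258.5 for *TEAD3* and 268.0 for *TEAD4*. *TEAD1* thus held 34.7% of the summed TEAD level per kilobase of transcript. This share depended on the length used and was 69.3% per kilobase of coding sequence, since most of the *TEAD1* transcript is 3′UTR.

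The LATS kinases had the lowest levels of the 10 genes. *LATS1* (ENSG00000131023), at chr6:149658153-149718105 (minus strand), had a mean normalized count of 580.3. Per kilobase its level was 78.8, above only 35.9% of genes. *LATS2* (ENSG00000150457), at chr13:20973036-21061586 (minus strand), had a mean of 1045, or 188.3 per kilobase, above 58.3% of genes. *LATS2*, the kinase that is itself a YAP target, was 2.39 times as high per kilobase as *LATS1*, and 1.87 times per kilobase of coding sequence.

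The angiomotin-like proteins bind YAP and hold it at junctions and on actin. *AMOTL1* (ENSG00000166025) is at chr11:94706431-94876748 (plus strand) and *AMOTL2* (ENSG00000114019) at chr3:134355347-134375479 (minus strand). Their mean normalized counts were alike, 4395 for *AMOTL1* and 4468 for *AMOTL2*. The *AMOTL1* transcript is longer, and per kilobase the levels were 489.4 for *AMOTL1* and 917.9 for *AMOTL2*, a ratio of 0.533. Per kilobase of coding sequence the ratio was 0.802. *AMOT*, the founding member of the family, was absent from the table, which starts at a mean normalized count of 26.7.

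The classical targets had the highest levels. *CYR61* (ENSG00000142871), which encodes a secreted matricellular protein, is at chr1:85580761-85584589 (plus strand). Its mean normalized count of 17717 was the 109th highest of the table, and its level per kilobase was 7777, above 98.5% of genes. *ANKRD1* (ENSG00000148677), which encodes a nuclear ankyrin repeat protein, is at chr10:90912096-90921087 (minus strand). Its mean was 16397, and 9161 per kilobase, above 98.7% of genes. *CTGF* (ENSG00000118523), a secreted relative of *CYR61*, is at chr6:131948176-131951372 (minus strand) and had a mean of 4612, or 1973 per kilobase. *CYR61* was 3.94 times as high as *CTGF* per kilobase of the representative transcript and 2.92 times per kilobase of the longest annotated transcript. *ANKRD1* stood above *CYR61* on each of the 3 length scales, and below it by mean normalized count alone.

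Of 27 other genes of the pathway, 26 were in the table and 22 of these were above the median by mean normalized count. Per kilobase, 19 of the 26 were above the median of all genes, and their median was 241.1, against 580.9 for the 10 genes. These sets are unlike, since the 10 genes include the highly expressed targets *ANKRD1*, *CYR61* and *CTGF*. Among 10 upstream regulators, the giant cadherin *FAT1* was highest with 1629 per kilobase and *DCHS1*, a ligand-type cadherin of the Fat system, was lowest with 3.53. *NF2*, which encodes the LATS-recruiting protein merlin, stood at 94.7. In the kinase core, the Hippo kinases had levels per kilobase of 412.4 for *STK4* and 189.0 for *STK3*, and their adaptor *SAV1* had 236.4. The LATS activators differed, with 282.9 for *MOB1A* and 52.4 for *MOB1B*, and *MAP4K4*, a parallel kinase that acts on LATS, reached 533.0. Of 4 listed genes for proteins that bind YAP or LATS, 2 were above the median per kilobase, the phosphatase gene *PTPN14* with 648.5 and the LIM protein gene *AJUBA* with 790.6. The related LIM protein genes *LIMD1* and *WTIP* were below it, with 127.6 and 22.3. *VGLL4*, which competes with YAP for TEAD, had 169.5.

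A list of 22 genes often used as a readout of YAP and TAZ activity contains 5 of the 10 genes, and also *RBMS3*, the target of the hairpins. All 22 were in the table, 18 above the median and 12 above the 75th percentile per kilobase. Without the 5 shared genes, 13 of 17 were above the median, and the median of the 17 was 372.7 per kilobase. *AXL*, a receptor tyrosine kinase, had 7502 per kilobase, next to *CYR61*. *MYOF*, *F3* and *NT5E* lay between 2391 and 2470. At the other end were *FOXF2* with 70.1, *NUAK2* with 61.7, *CCDC80* with 50.8 and *RBMS3* with 32.1. The value of *RBMS3* is a pooled mean that may include knockdown libraries, so its place in control cells is not known. These are levels, and they do not say how any gene of the list responded to the knockdown.

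**Figure D2:**
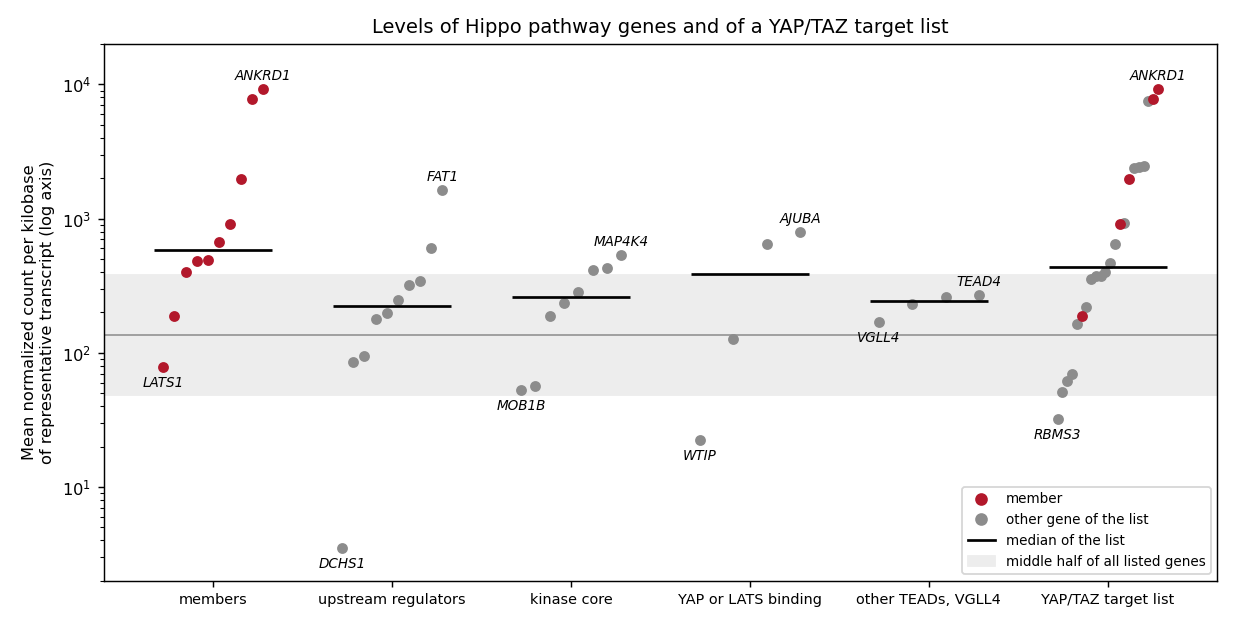
Mean normalized count per kilobase of the representative transcript (log axis) for the 10 genes, for 4 groups of other Hippo pathway genes and for the 22 YAP/TAZ target genes, with 1 point per gene, black bars for the median of each list and shading between the quartiles of all genes, 48.6 and 382.6. The 10 genes span 78.8 to 9161, and *DCHS1* lies far below the other genes at 3.53.

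RBMS3 binds an A/U-rich element, here the AUA element, in 3′UTRs. The element has 7 positions: A, G or T, then A or T, then ATA, then A or T, then A. It was sought on the transcript strand of the representative 3′UTR. All 10 genes had at least 1 match, as did 84.8% of the 12350 listed genes with a 3′UTR, and 93.6% of the 8220 whose 3′UTR was at least as long as the shortest of the 10. A match is a run of letters and not a binding site. The 10 genes had 85 matches in all, and 8 of them had 3 or more, against 53.1% of all genes and 71.9% of those with 3′UTRs at least as long as the shortest of the 10. The genes of the signalling machinery had long 3′UTRs, up to 7515 bases in *TEAD1*, and the median of the 10 was 2921 bases, against 1378 for all genes. Per kilobase of 3′UTR the median number of matches was 2.76, against 2.43 for all genes. It was 2.35 for genes with 3′UTRs at least as long as the shortest of the 10.

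Counted with overlaps, the densest 3′UTR was that of *CTGF*, with 6 matches in 1088 bases or 5.51 per kilobase, above 83.7% of genes. It was followed by *YAP1* with 15 matches and 4.31 per kilobase and *WWTR1* with 15 matches and 4.20 per kilobase. *TEAD1* had the most matches, 17, at 2.26 per kilobase. *AMOTL2* had the fewest for its length, 2 in 2358 bases, above 23.0% of genes. *CYR61* had 2 and *ANKRD1* had 3. Overlapping matches inflate some counts. In *CTGF* 5 of the 6 matches lie within a single alternating run of T and A, and *YAP1* and *TEAD1* contain such runs too. *WWTR1* has overlapping matches in a repeat of AAAT. With overlapping or touching matches joined, the 85 matches formed 66 stretches. *YAP1* and *WWTR1* each kept 10, or 2.87 and 2.8 per kilobase. The median over the 10 genes was 2.46 per kilobase, against 2.10 for all genes. For genes with 3′UTRs at least as long as the shortest of the 10, this median was 1.99. *CTGF* kept only 2 stretches, or 1.84 per kilobase, above 44.5% of genes, and *ANKRD1* became the densest with 3.90 per kilobase, above 78.7% of genes.

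The AUA element can also contain the polyadenylation signal AATAAA, which sits close to the end of many transcripts. Of the 85 matches, 22 held it, or 25.9%, against 36.0% of all matches in listed genes. The share was 34.3% in genes with 3′UTRs at least as long as the shortest of the 10. *WWTR1* alone gave 8 of the 22, some of them overlapping matches in a repeat that starts 1237 bases before the transcript end. In 7 of the 10 genes a match began within 50 bases of the transcript end. The same was so for 58.5% of all genes and 60.5% of those with such longer 3′UTRs. All 10 genes also had a match without the signal, which was the case for 79.4% of the listed genes with 3′UTRs at least as long as the shortest of the 10. Sites of 4 targets and of both coactivators are printed to show the kinds of match, with the match in capitals and read 5′ to 3′ on the transcript strand, from the GENCODE transcripts. The lines for *CTGF* and *ANKRD1* show a run of alternating T and A and an isolated match, and the lines that end in "signal" show matches that hold AATAAA.
CTGF, chr6:131948623-131948651, minus strand: tgtgtgtgtatATATATAtatatgtacag
ANKRD1, chr10:90912573-90912601, minus strand: gagcttcatttGTATATAacactttcaga
CYR61, chr1:85583866-85583894, plus strand: aaagtctttgcATATAAAgtaatgtttaa
AMOTL2, chr3:134357048-134357076, minus strand: gtgcgcagtttGTATATAattccctttct
YAP1, chr11:102231945-102231973, plus strand: atcactgtgttGTATATAatagttcatag
CTGF, chr6:131948185-131948213, minus strand, signal: tttctagttgaAAATAAAgtgtatatttt
ANKRD1, chr10:90912102-90912130, minus strand, signal: ttttatattcaTAATAAAggcaatcaaac
WWTR1, chr3:149517240-149517268, minus strand, signal: ctgtataagaaAAATAAAgacaattgaac

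The match in the first *CTGF* line begins at base 624 after the stop codon, and that in the second begins 27 bases before the annotated end of the transcript. The *ANKRD1* match with the signal begins 24 bases before the end and that of *WWTR1* 23 bases before it.

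**Figure D3:**
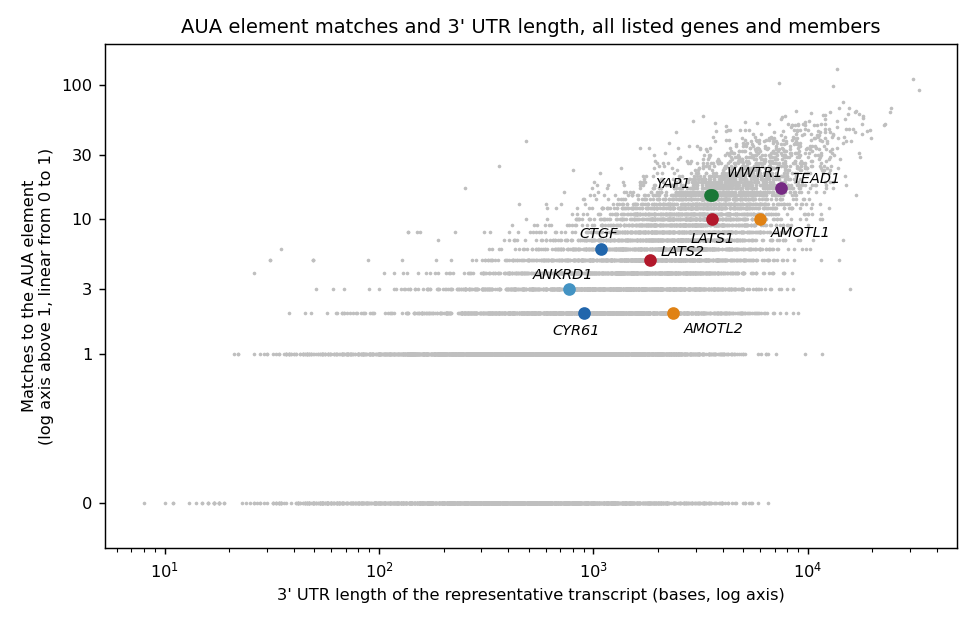
Number of AUA element matches (log axis above 1, linear from 0 to 1) against 3′UTR length in bases (log axis), with 1 grey point for each of 12350 listed genes and coloured points for the 10 genes, by role. The points of *YAP1* and *WWTR1*, each with 15 matches, nearly coincide. The 10 genes lie within the cloud of all genes, *AMOTL2* near its lower side with 2 matches in 2358 bases and *CTGF* near its upper side with 6 in 1088. Matches are counted with overlaps here, and with overlapping or touching matches joined *CTGF* kept only 2 stretches.

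The AU-rich pentamer ATTTA, found in many short-lived mRNAs, was sought in the same way. It had 82 matches in the 10 genes, of which 3 shared bases with an AUA match. All 10 genes had at least 1 match, against 73.7% of all listed genes with a 3′UTR and 90.5% of those with 3′UTRs at least as long as the shortest of the 10. The median over the 10 genes was 3.01 per kilobase, against 1.72 over all genes. Over genes with 3′UTRs at least as long as the shortest of the 10 it was 2.06. The median A+U content of the 3′UTR was 63.2% in the 10 genes and 59.3% in that longer set. The highest densities were those of *ANKRD1*, 5.19 per kilobase, *LATS1*, 4.75, and *CYR61*, 4.41, each above at least 87.8% of genes. *AMOTL1* and *AMOTL2* had 1.18 and 1.27. *AMOTL1* and *AMOTL2* were also the only ones of the 10 genes whose 3′UTR had a lower A+U content than the median of all genes of 57.9%, at 55.4% and 52.3%.

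**Figure D4:**
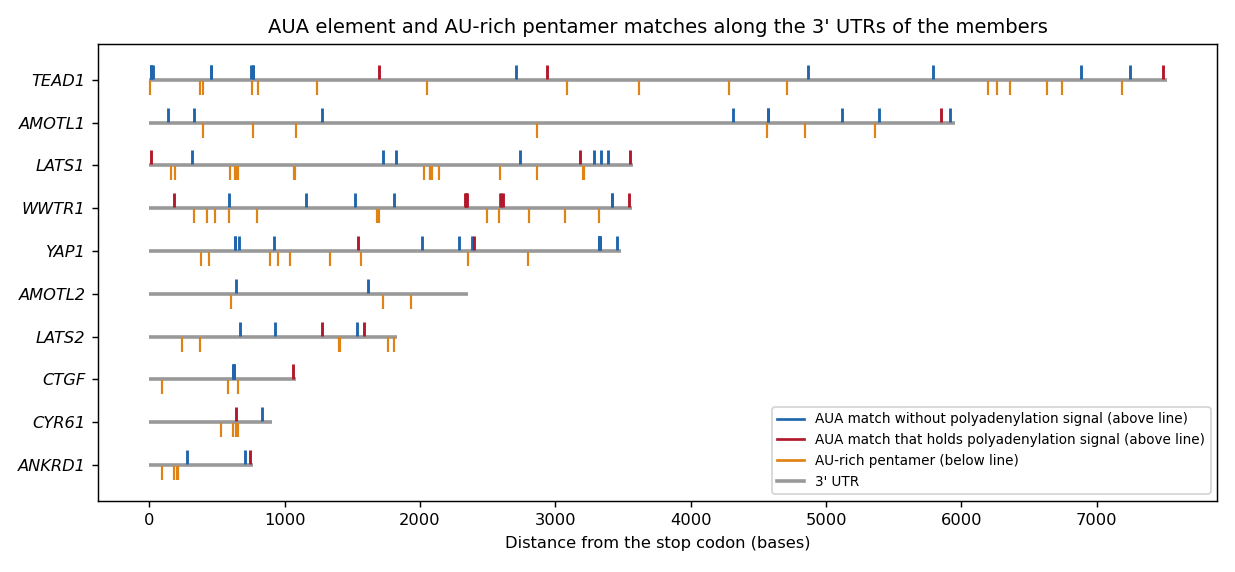
Positions of the matches along the 3′UTR of each gene, in bases from the stop codon, with AUA element matches above the line (blue, or red where they hold the polyadenylation signal) and AU-rich pentamers below it in orange. Grey lines give the 3′UTR, from 770 bases in *ANKRD1* to 7515 in *TEAD1*. Matches are unevenly spaced. The AUA matches of *TEAD1* begin from base 11 to base 7489, and in *AMOTL1* none begins between bases 1280 and 4309.

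YAP and TAZ reach DNA through TEAD factors, whose core motif GGAATG, or CATTCC on the other strand, was sought in RefSeq promoter windows on GRCh38.p14, from 250 bases before to 50 bases after each annotated start. Windows were matched for 8 of the 10 genes, 11 windows in all, and *TEAD1* and *CYR61* had none. The motif was present for 5 of the 8 genes, against 16.7% of 27305 genes with a window and 14.0% of 35116 windows. These were *YAP1*, *LATS2*, *AMOTL2*, *CTGF* and *ANKRD1*, of which the last 4 are in the YAP/TAZ target list. The 10 genes were picked as pathway genes or known targets, so this share is a description and does not test regulation by TEAD. *WWTR1*, *LATS1* and *AMOTL1* had no match in this window, which says only that these letters are not in it. *CTGF* had 3 matches, 169, 104 and 95 bases before its start, and the last 2 stand next to each other. *ANKRD1* had 2, at 220 and 128 bases before its start. The matches of all 5 genes are printed with the motif in capitals and read in the direction of the gene. Whether a match bears on the level of a gene was not tested.
CTGF, chr6:131951525-131951552, minus strand: tttcagacggaGGAATGctgagtgtcaa
CTGF, chr6:131951460-131951487, minus strand: gaaggtggggaGGAATGcgaggaatgtc
CTGF, chr6:131951451-131951478, minus strand: gaggaatgcgaGGAATGtccctgtttgt
ANKRD1, chr10:90921291-90921318, minus strand: tcaccaccaaaGGAATGgccctctcaca
ANKRD1, chr10:90921199-90921226, minus strand: acactgagtctGGAATGaaaattcacct
AMOTL2, chr3:134374500-134374527, minus strand: tgaaactctcaCATTCCtggcatagcag
LATS2, chr13:21061561-21061588, minus strand: gtgacgcccgtGGAATGccaacaatgta
YAP1, chr11:102110274-102110301, plus strand: gggagtgtgcaGGAATGtagcaacttgc

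The *AMOTL2* match lies before the second of its annotated starts, 69 bases upstream, and the *LATS2* match begins 9 bases after its start. With the longer form GGAATGT or its reverse complement, 3 of the 8 genes had a match, *YAP1*, *AMOTL2* and *CTGF*, against 4.25% of genes. No binding of TEAD, YAP or RBMS3 was measured in these files.

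**Figure D5:**
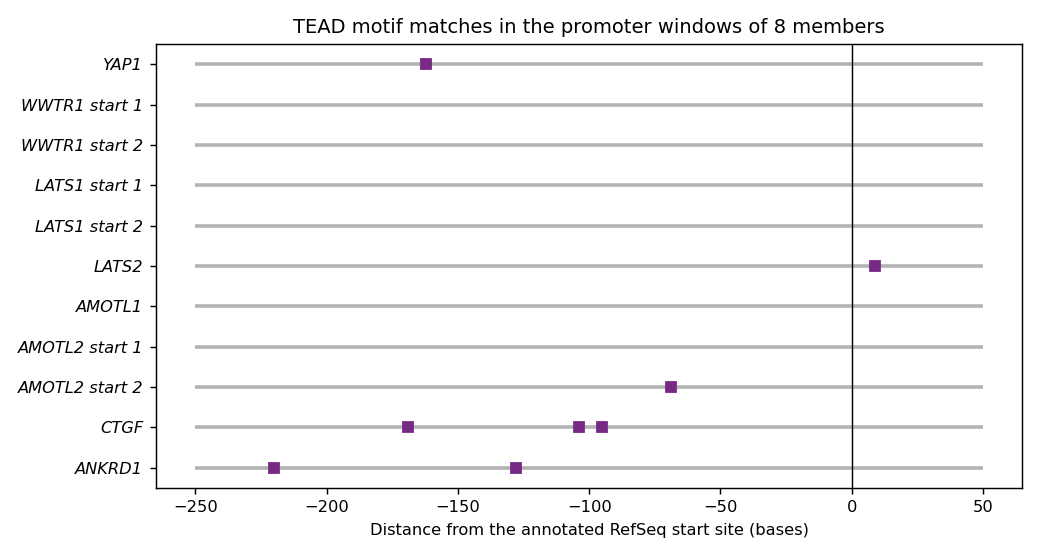
Positions of GGAATG or its reverse complement (squares) in the 11 promoter windows of 8 genes, in bases from the annotated RefSeq start site, with grey lines for the windows. *CTGF* has 3 matches and *ANKRD1* 2, all upstream of the start, and that of *LATS2* is the only match after a start.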

How the data were processed

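MDA-MB-231 cells with a control hairpin (2 libraries) or either of 2 hairpins against *RBMS3* (2 libraries each) were sequenced by the authors as total RNA with a stranded low-input kit. The submitters' processing notes name Salmon and DESeq2 and the build hg38, without versions. The deposited signal used here is the authors' mean normalized count per gene. It was taken to be counts divided by size factors and averaged over libraries, with no correction for length between genes. The authors' log2 fold changes, standard errors, test statistics and p-values hold their own comparison and were not used. No values per library were analysed here, so no test could be made and the planned count test was not run. Depth is unknown.

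Ensembl identifiers of the table were looked up in GENCODE release 44 (hg38), and 15829 of 15917 were found. Each gene was represented by its MANE Select transcript, or else by the Ensembl canonical transcript or the one that codes for most bases. A 3′UTR began after the stop codon and had at least 7 bases. Matches were counted with overlaps. Promoter windows came from RefSeq on GRCh38.p14, and all 35116 were identical to hg38 at their coordinates. Printed sites have 11 bases on either side of the match. The functions were tested on simulated data. Python 3.11.15, numpy 2.4.6, pandas 2.3.3 and matplotlib 3.10.9 were used.

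The genes and lists, among them 22 YAP/TAZ target genes, were chosen with earlier results of these data known. All members and the genes of these lists could be named. Comparisons with all genes are descriptions, since genes are not replicates.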

Additional observations from a re-analysis of the deposited data

How the results depend on the processing

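Over 4 results and 17 alternatives, 14 alternatives gave a count within 1.5 times that reported. This tally is not a measure of robustness, since some alternatives could hardly differ. Among the 10 genes, the longest transcript and longest 3′UTR differed from the representative ones only for *CYR61*, which kept 2 AUA matches. The factor was also wide, since 7 of 10 genes counted as within it. Of the 17 alternatives, 2 were chosen after seeing the data: leaving out AUA matches that hold AATAAA, which kept a match in all 10 genes, and asking for at least 3 separate stretches, which 7 genes had, against 68.7% of genes with 3′UTRs at least as long as the shortest of the 10. The number of the 10 genes above the median level lay between 8, per kilobase of coding sequence, and 10. When coding sequences were searched for the AUA element instead, 5 of the 10 genes had a match, against 40.6% of all genes. For the TEAD motif, present for 5 of 8 genes, the 7-letter form gave 3 genes and a window from 1000 bases before to 500 after the start gave 8, against 57.7% of all genes, both by construction of the search.

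No paired analysis was possible because only means over libraries were used, which carry no replicate. For the same reason 5 further settings were not run: another normalization, no filter on low counts, a replicate block, leaving out each replicate, and each hairpin alone against control. Whether the representative transcripts are those expressed in these cells was not tested.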
